A study of Drosophila melanogaster with 2 samples.

Results

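The 8 small heat shock protein genes measured here are *Hsp22*, *Hsp23*, *Hsp26*, *Hsp27*, *Hsp67Ba*, *Hsp67Bc*, *l(2)efl* and *CG14207*. They were chosen by name, through their FlyBase identifiers, as *Drosophila* genes of the alpha-crystallin family, and they are 8 of the 13931 genes in the deposited table. The choice was made with earlier results of these data known and leaves out other genes of the family. The table describes indirect flight muscle (IFM), the large thoracic muscle that powers the wings, from flies with and without a knockdown of *blistered* (*bs*), the *Drosophila* SRF gene. The *bs* KD library is from flies of genotype *1151>bs[RNAi KK108659]*, in which the *1151-Gal4* driver, active in the myoblasts and founder cells of the developing adult muscles, expressed an RNAi construct against the *bs-RA* and *bs-RC* transcripts. The control library is from *1151/+* flies, progeny of the driver and *w1118*, which carried the driver and no RNAi construct. Each is 1 library of muscle pooled from 4 females aged 3 days and staged at 29°C, so both genotypes had been kept in the same warmth.

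Small heat shock proteins bind unfolding proteins without using ATP and hold them until ATP-driven chaperones of the Hsp70 class can refold them or pass them on for degradation. Their shared feature is the alpha-crystallin domain, through which they assemble into dimers and larger oligomers. Several of the *Drosophila* genes sit side by side in a cluster on chromosome arm 3L and are known to be induced by heat through heat shock factor, and in development by ecdysone. In muscle, members of the HSPB8 type work with the cochaperone Starvin, related to mammalian BAG3, in the clearance of damaged filament proteins at the Z-disc.

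The differences have no replicate check, because each genotype is 1 library, and no test was possible. Values are given as TPM, the number of transcripts of a gene in every 1000000 transcripts, with counting intervals of 95% that cover counting error only. The deposited estimated reads sum to 19767477 in *bs* KD and 20955053 in the control. The log2 change of a gene compares its TPM in *bs* KD with its TPM in the control after 1 TPM is added to each, a scale that understates the change of genes with low values. The 1804 genes that reached 10 TPM in *bs* KD as well as in the control had a median log2 ratio of 0.13. This shift was not removed from the values below. With 1 TPM added it weighs less on the log2 change of genes with low values. The targeted gene *bs* stood at 1.80 TPM in *bs* KD and 2.75 TPM in the control, a ratio of 0.656 (0.503 to 0.852). That value pools all *bs* transcripts, including *bs-RB*, which the RNAi construct does not target. The paper measured *bs-RA/RC* alone by qPCR and reported a larger loss in knockdown flight muscle. All 5 flight muscle markers were detected in both libraries. *Act88F*, the flight muscle actin gene, had 7471 TPM in *bs* KD and 33116 TPM in the control. The other 4 (*fln*, *Mhc*, *TpnC4* and *sls*) summed to 30624 TPM in *bs* KD and 27074 TPM in the control. Of these, *fln* (16500 and 13111 TPM) and *TpnC4* (9037 and 7568 TPM) were higher in *bs* KD. *Mhc* (4993 and 6295 TPM) and *sls* (93.8 and 100 TPM) were lower. Of the markers of other cells, summed TPM in *bs* KD and in the control was 8.76 and 38.4 for trachea (5 of 5 detected), 20.6 and 22.0 for fat body (4 of 5), and 9.70 and 2.52 for gut (4 of 5). It was 3.81 and 4.10 for hemocytes (1 of 5), 1.93 and 4.11 for neurons (1 of 5), 192 and 89.4 for glia (3 of 4), and 17.6 and 12.3 for ovary and germ line (1 of 5). The glial markers went both ways, with *nrv2* at 84.6 TPM in *bs* KD and 10.4 TPM in the control and *Gs2* at 105 and 74.9 TPM, but *moody* at 1.90 and 3.66 TPM and *repo* at 0.296 and 0.496 TPM. The fat body markers also went both ways, with *Yp1* at 9.31 TPM in *bs* KD and 4.35 TPM in the control. *Fbp1* (0.222 and 1.96 TPM), *Lsp2* (0.388 and 2.34 TPM), *Yp2* (10.4 and 13.2 TPM) and *apolpp* (0.210 and 0.230 TPM) were lower in *bs* KD. The germ line value came from *grk*, while *osk* and *bam* were listed at 0 in both libraries. The part of these cells in the values of the small heat shock genes was not tested, and fewer cells of a type and less RNA per cell cannot be told apart in whole tissue.

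The 8 small heat shock genes chosen here were higher in *bs* KD as a sum. Their TPM summed to 1167 in *bs* KD and 434.6 in the control, a ratio of 2.68, and took 0.117% of all transcripts in *bs* KD and 0.0435% in the control. One gene, *Hsp22*, made up 93.2% of that sum in *bs* KD and 93.1% in the control. The other 7 genes together had 78.8 TPM in *bs* KD and 30.2 TPM in the control, a ratio of 2.61. For these chosen genes the sum was thus about as much higher with *Hsp22* left out as with it. The sums leave out other genes of the family and cluster. Of those, *CG4461* (199 TPM in *bs* KD and 238 TPM in the control) and *CG7409* (7.59 and 37.1 TPM) were lower in *bs* KD. *CG4456* (2.24 and 0.188 TPM) was higher. *CG4461* alone stood above the other 7 chosen genes together in each library. The ratio of 2.61 therefore does not extend to the family without *Hsp22*. Detection was set at 1 TPM in either library. By this rule 7 of the 8 genes were detected, 7 in *bs* KD and 5 in the control. TPM was higher in *bs* KD for 6 genes and lower for 2, *Hsp23* and *Hsp67Ba*.

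**Figure D1:**
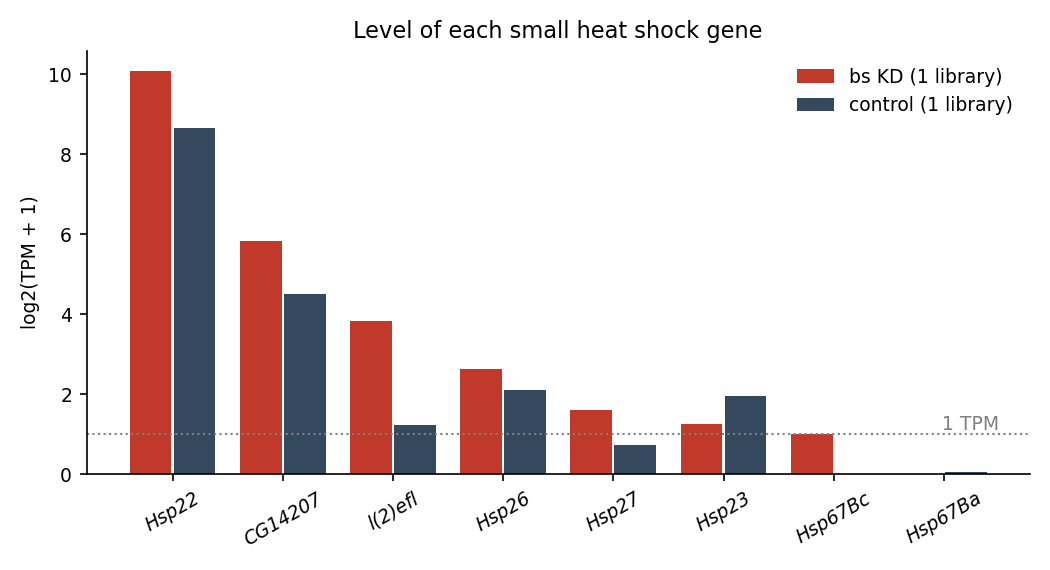
Level of each small heat shock gene as log2(TPM + 1), with the *bs* KD library on the left and the control library on the right of each pair. *Hsp22* stands far above the others in both libraries (1088 and 404 TPM), and *Hsp67Ba* is close to 0 in both.

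*Hsp22* encodes the small heat shock protein of the mitochondrial matrix. It had 1088 TPM in *bs* KD and 404 TPM in the control, from 17264 and 6373 estimated reads. The *bs* KD level was 2.69 times the control level, with a counting interval of 2.61 to 2.77, and the log2 change was 1.43. By level it ranked 151st among all genes in *bs* KD and 262nd in the control. This gene carried 93.4% of the summed difference of the 8 genes.

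*CG14207*, an X-linked gene for an HSPB8-like protein, was the second most abundant member in both libraries. It had 55.7 TPM in *bs* KD and 21.9 TPM in the control, from 1186 and 455 estimated reads. The ratio was 2.54 (2.28 to 2.84) and the log2 change 1.31. Its ratio and that of *Hsp22* have overlapping counting intervals, although the level of *Hsp22* was far higher.

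*l(2)efl*, named for its lethal mutations as lethal (2) essential for life, had the largest log2 change of the 8 genes, although the fold of *Hsp67Bc* is known only as a bound. It had 13.3 TPM in *bs* KD and 1.35 TPM in the control, from 155 and 15.6 estimated reads. The ratio was 9.87, with a counting interval of 5.74 to 17.3, which lies wholly above the intervals of *Hsp22* and *CG14207*. The log2 change of 2.61 was the 37th highest of the 6384 detected genes, whereas *Hsp22* ranked 254th and *CG14207* 318th. In the order of levels *l(2)efl* was number 3 of the 8 genes in *bs* KD and number 5 in the control.

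*Hsp67Bc*, the other HSPB8-like gene, was listed at 0 in the control. It had 1.03 TPM in *bs* KD, from 16.8 estimated reads. Set against the limit that 3 reads give in the control library, 0.186 TPM, the *bs* KD level as measured was 5.55-fold higher. This bound covers counting error in the control only. The *bs* KD level has a counting interval of its own of 0.611 to 1.68 TPM, so the fold may also lie below 5.55. Its log2 change of 1.02 depends on the value added to both libraries and is no bound.

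*Hsp27* and *Hsp26* encode a nuclear and a cytosolic small heat shock protein. *Hsp27* had 2.07 TPM in *bs* KD and 0.659 TPM in the control, from 42.4 and 13.4 estimated reads. Its ratio of 3.15 (1.69 to 6.51) was above 2, while its log2 change with 1 TPM added was 0.89, below the size of 2-fold. *Hsp26* had 5.27 TPM in *bs* KD and 3.30 TPM in the control, from 82.6 and 51.3 estimated reads, with a ratio of 1.60 (1.13 to 2.34) and a log2 change of 0.55. Neither passed 2-fold on the log2 scale used here. For *Hsp26* the interval on whole reads, 1.09 to 2.36, starts at the median ratio of the abundant genes, 1.09, so a difference beyond that shift was not detectable at this depth.

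*Hsp23*, a cytosolic small heat shock protein gene, was the one detected member with a lower value in *bs* KD. It had 1.39 TPM in *bs* KD and 2.90 TPM in the control, from 19.0 and 41.3 estimated reads. The ratio was 0.478 (0.264 to 0.849) and the log2 change −0.71. Its interval lies below those of *Hsp26*, *Hsp27*, *Hsp22*, *CG14207* and *l(2)efl*. *Hsp67Ba* was listed at 0 in *bs* KD and had 0.0377 TPM in the control, which rests on 1.12 estimated reads, so no fold is given.

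**Figure D2:**
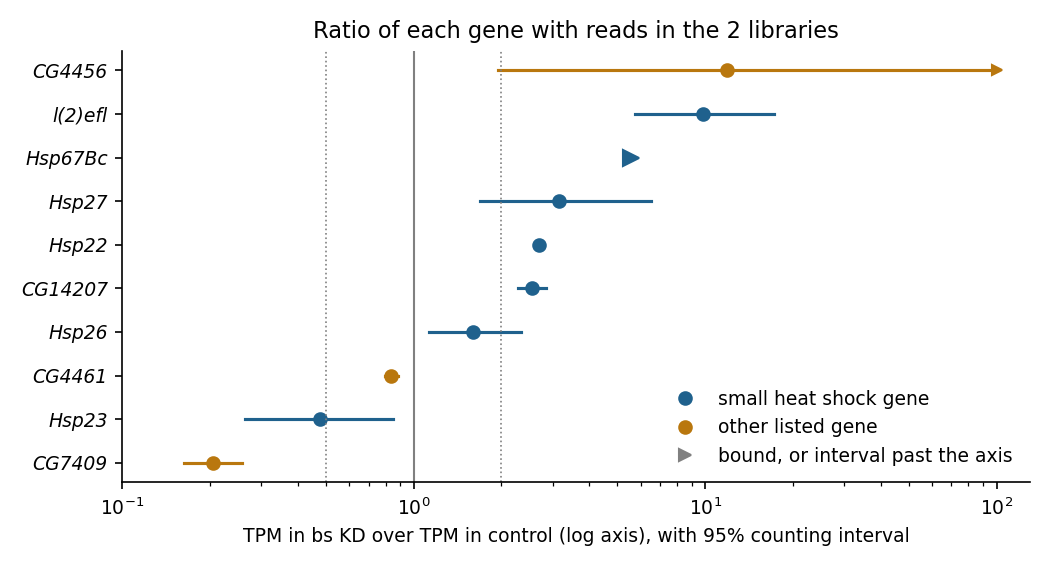
TPM in *bs* KD over TPM in the control for each gene with reads (log axis). Lines are counting intervals of 95%. The arrow of *Hsp67Bc* marks its bound of 5.55, which leaves out counting error in *bs* KD. *l(2)efl* is farthest right of the small heat shock genes and *Hsp23* is the one left of 1; *CG7409* and *CG4461*, of the same family, also lie left of 1.

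In all, 4 of the 7 detected genes (*Hsp22*, *CG14207*, *l(2)efl* and *Hsp67Bc*) were higher in *bs* KD by 2-fold or more, against 9.38% of the 6384 detected genes. None was lower by that size, against 6.05% of detected genes. The members were chosen with earlier results of these data known, so these counts do not describe the whole family. *CG7409*, of the same family but not among the members, was lower by more than 2-fold (log2 change −2.15). The number of members higher by 2-fold or more was 3 with median-ratio or upper-quartile scaling, in estimated reads per 1000000 and with 5 TPM added. In each of these settings *Hsp67Bc* fell short of 2-fold. *Hsp67Bc* and *Hsp27* were counted as detected only through *bs* KD, so the count favours higher genes. When a mean of at least 1 TPM over both libraries was asked for instead, 6 genes remained and 3 of them were higher by 2-fold or more, against 9.56% of genes under that rule. The median log2 change was 1.02 over the 7 detected genes and 0.96 over all 8, and 0.07 over all detected genes. The 1.02 is the value of *Hsp67Bc* itself, which depends on the TPM added. The 0.96 lies midway between the values of *Hsp27* and *Hsp67Bc*. Both medians thus rest on genes with few reads, and the median of the 7 favours higher genes as the count does. How far the group stands above 0.07 therefore depends on the TPM added. With 5 TPM added the median of the 7 was 0.32. Among the detected genes whose transcripts were as long as those of the members (738 to 1265 bp), the median log2 change was 0.35, and 15.1% were higher by 2-fold or more. The part of transcript length in the changes was not tested.

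The order of levels differed between the libraries below the first 2 genes. In *bs* KD it ran *Hsp22*, *CG14207*, *l(2)efl*, *Hsp26*, *Hsp27*, *Hsp23*, *Hsp67Bc* and *Hsp67Ba*. Counting intervals of the levels overlapped there between *Hsp27* and *Hsp23*, between *Hsp23* and *Hsp67Bc*, and between *Hsp27* and *Hsp67Bc*. In the control it ran *Hsp22*, *CG14207*, *Hsp26*, *Hsp23*, *l(2)efl*, *Hsp27*, *Hsp67Ba* and *Hsp67Bc*. There the intervals of *Hsp26* and *Hsp23*, of *Hsp23* and *l(2)efl*, of *l(2)efl* and *Hsp27*, and of *Hsp67Ba* and *Hsp67Bc* overlapped.

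The genes differ in place and structure. Of the 8, 6 lie within 14.2 kb of chromosome arm 3L, between positions 9371511 and 9385694 (BDGP6.54 annotation of Release 6), in the order *Hsp67Bc*, *Hsp22*, *Hsp26*, *Hsp67Ba*, *Hsp23* and *Hsp27*. *Hsp22*, *Hsp23* and *Hsp27* are on the plus strand and the other 3 on the minus strand. *l(2)efl* lies on the minus strand of 2R from 23684651 to 23685543, and *CG14207* on the plus strand of X from 19605199 to 19611413. All annotated transcripts of *Hsp23*, *Hsp26*, *Hsp27*, *Hsp67Ba* and *Hsp67Bc* have 1 exon, and *Hsp22* has a 1-exon transcript of 968 bp besides a longer one. *l(2)efl* transcripts have 3 exons and those of *CG14207* 4 or 5.

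Neighbours in the cluster did not move together. From the minus-strand *Hsp67Bc* at one end to *Hsp27* at the other, the log2 changes in genome order were 1.02, 1.43 (*Hsp22*), 0.55 (*Hsp26*), −0.05 (*Hsp67Ba*), −0.71 (*Hsp23*) and 0.89. Of these, *Hsp67Ba* was not detected, so its value shows no change either way, and the value of *Hsp67Bc* depends on the TPM added. *CG4461*, an alpha-crystallin family gene between *Hsp22* and *Hsp26*, was abundant in both libraries. It had 199 TPM in *bs* KD and 238 TPM in the control, a ratio of 0.838 (0.797 to 0.882). The genes flanking the cluster were near the control level, with log2 changes of 0.06 for *Fdx1*, the ferredoxin gene beside *Hsp67Bc*, and −0.17 for *CG4080*, beyond *Hsp27*. These 2 flanking genes were chosen by position.

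**Figure D3:**
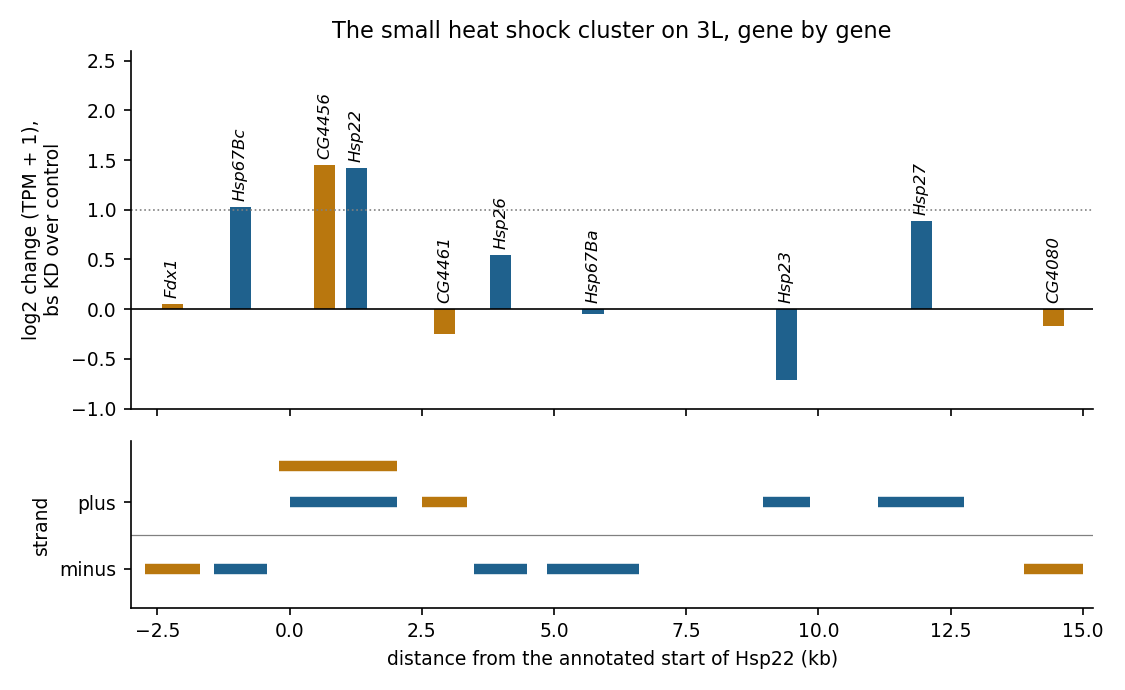
Log2 change of each gene in and beside the cluster (upper panel, *bs* KD over control with 1 TPM added; blue for small heat shock genes, ochre for others) and the place and strand of each gene (lower panel), by distance from the annotated start of *Hsp22*; *CG4456* is drawn above *Hsp22*, which it overlaps, and *CG4080* runs past the right edge. Changes of 1.43 (*Hsp22*) and −0.71 (*Hsp23*) occur within the same cluster. *Hsp67Ba* was not detected, and the bar of *Hsp67Bc* depends on the TPM added.

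*Hsp22* shares its annotation with *CG4456*, the gene earlier called *Hsp67Bb*. Both genes list a transcript of 1900 bp with 3 exons that spans the 2 coding units, from 9372931 to 9374964. Reads placed on that transcript cannot be assigned to one of the genes. TPM and estimated reads of *Hsp22* together imply a transcript of 968 bp in both libraries, which is the length of its own 1-exon transcript. For *CG4456* they imply 427 bp in both libraries, the length of a shorter transcript listed for that gene alone. Neither implied length is that of the shared transcript of 1900 bp. *CG4456* had 2.24 TPM in *bs* KD and 0.188 TPM in the control, from 13.4 and 1.12 estimated reads, with a ratio of 11.9 (1.94 to 548.7). The reads of *Hsp22* thus exceeded those of *CG4456* by far in both libraries.

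Other transcript lengths could be read in the same way. For *Hsp26*, *Hsp27* and *l(2)efl* the implied lengths of 958, 1220 and 738 bp were the same in both libraries, and each is that of 1 annotated transcript. For *Hsp23* the implied length was 849 bp in *bs* KD and 884 bp in the control. These are the lengths of its 2 annotated transcripts, which share a start and differ at the 3′ end, and the few reads of *Hsp23* limit what this difference can show. For *CG14207* the implied length was 1265 bp in *bs* KD and 1244 bp in the control, between its annotated transcripts of 1240 and 1267 bp. *l(2)efl* shares 75 bp of exon with *St3* on the other strand, which had 0.423 TPM in *bs* KD and 0.681 TPM in the control. Since the strand of the reads is not stated, reads from those bases cannot be told apart. *Hsp67Ba* shares 1316 bp of exon with an antisense RNA gene, *asRNA:CR43481*, and *Hsp27* 49 bp with the pseudogene *CR43483*, neither of which was analysed here.

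Besides *CG4456* and *CG4461*, the list of other alpha-crystallin family and cluster genes held *CG7409*, *CG13133* and *CG43851*. *CG7409*, which lies outside the cluster on 3L from 7754409 to 7755168, had 7.59 TPM in *bs* KD and 37.1 TPM in the control, from 91.6 and 445 estimated reads. Its ratio was 0.204 (0.162 to 0.258) and its log2 change −2.15. *CG13133* and *CG43851* were listed at 0 in both libraries. Of the 3 detected genes of this list, 1 was higher by 2-fold or more (*CG4456*), 1 was lower (*CG7409*) and 1 was in between (*CG4461*), against 9.38% of detected genes higher and 6.05% lower. *CG4456* was detected only through *bs* KD, and it was not counted as higher with 5 TPM added, in estimated reads per 1000000 or with detection at 5 TPM.

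Among the genes that work with small heat shock proteins, 9 of 25 detected genes of the heat shock response and partner list passed 2-fold upward in *bs* KD, and 0 passed it downward. Their median log2 change was 0.60, against 0.07 over all detected genes, and 9.38% of detected genes were higher by that size. *Hsf*, the gene of heat shock factor itself, had 3.02 TPM in *bs* KD and 3.48 TPM in the control, a ratio of 0.867 (0.687 to 1.08). The Hsp70 genes are near-identical copies that share reads, so their sum is more certain than any one of them. The copies entered this list as 6 separate genes and make up 4 of the 9 past 2-fold. The median of 0.60 is the value of the copy *Hsp70Ba*. Count and median thus lean on the copies. The 6 copies summed to 271.5 TPM in *bs* KD and 70.8 TPM in the control, a ratio of 3.83.

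*Hsp83*, the Hsp90 gene, had 127 TPM in *bs* KD and 42.7 TPM in the control (ratio 2.98). *DnaJ-1*, an Hsp40 cochaperone of Hsp70, had 70.1 TPM in *bs* KD and 23.1 TPM in the control (ratio 3.04). *CG5001*, another Hsp40 gene, had 14.6 TPM in *bs* KD and 4.00 TPM in the control. *Hsp68*, an inducible Hsp70 relative, had 10.6 TPM in *bs* KD and 1.24 TPM in the control. *Hsc70-3*, the Hsp70 of the endoplasmic reticulum, had 17.9 TPM in *bs* KD and 7.13 TPM in the control. Other cochaperone genes lay within 2-fold, namely *Droj2* (log2 change −0.17), *Stip1* (0.21), *Hsp110* (0.34), *mrj* (0.39), *STUB1* (0.74), *p23* (0.82) and *Cdc37* (0.95). The 9 genes past 2-fold were the 5 above and the Hsp70 copies *Hsp70Aa*, *Hsp70Ab*, *Hsp70Bb* and *Hsp70Bc*.

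The mitochondrial chaperones share a compartment with Hsp22. *Hsp60A*, the mitochondrial chaperonin, had 27.5 TPM in *bs* KD and 39.9 TPM in the control, with a log2 change of −0.52, the lowest of the partner list. *Hsc70-5*, the mitochondrial Hsp70, had 73.6 TPM in *bs* KD and 91.8 TPM in the control, with a log2 change of −0.32. *CG11267*, the gene for the chaperonin partner Hsp10, had 22.7 TPM in *bs* KD and 29.8 TPM in the control, with a log2 change of −0.38. All 3 ratios lay below 1 by more than counting error. These 3 genes were singled out after their values were seen.

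**Figure D4:**
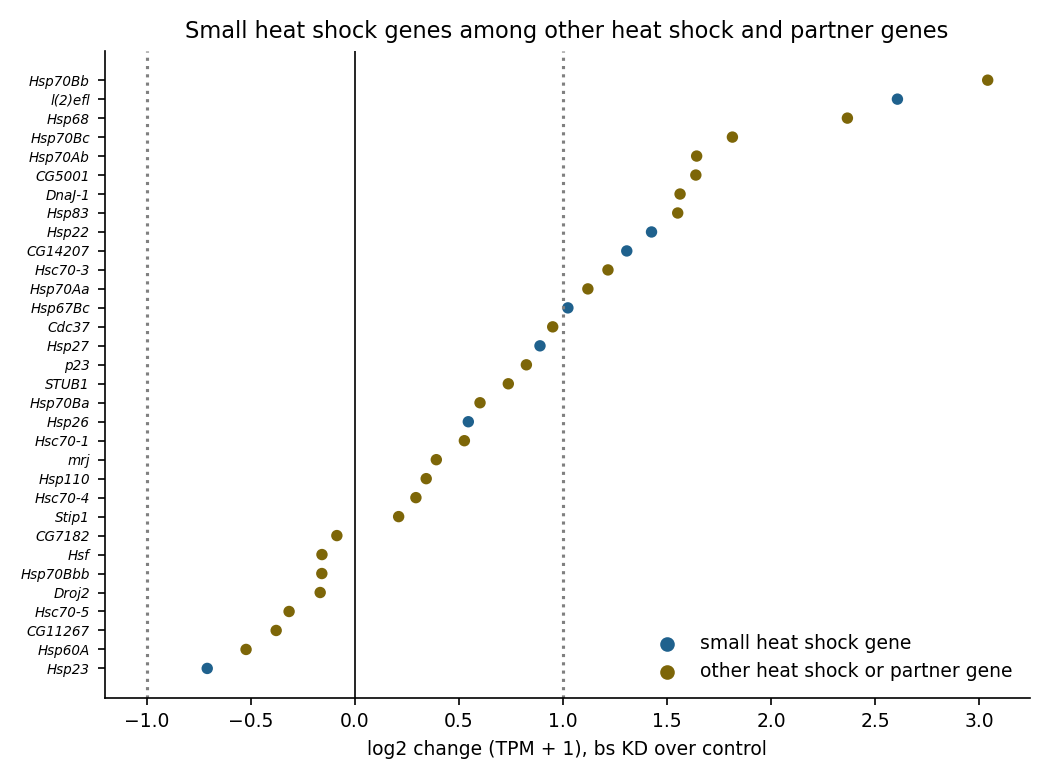
Log2 change (*bs* KD over control, 1 TPM added) of the 7 detected small heat shock genes (blue) and the 25 detected heat shock and partner genes (olive), in order of change; dotted lines mark 2-fold. *l(2)efl* stands second after *Hsp70Bb*, and *Hsp23* is at the bottom, below *Hsp60A*.

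The HSPB8 and Starvin pathway leads client proteins to autophagy. *stv*, the Starvin gene, had 115 TPM in *bs* KD and 57.9 TPM in the control, with a ratio of 1.99 and a log2 change of 0.98, just under 2-fold. *ref(2)P*, the p62 autophagy receptor, had 43.5 TPM in *bs* KD and 18.4 TPM in the control, with a ratio of 2.36. *Atg8a*, an autophagosome protein, had 341 TPM in *bs* KD and 162 TPM in the control, with a log2 change of 1.07. Of the 6 genes of this list, 2 were higher by 2-fold or more and 4 lay within it (*stv*, *cher*, *STUB1* and *Hsc70-4*, the lowest at 0.29), against 9.38% of detected genes higher by that size. The median log2 change was 0.86, against 0.07 over all detected genes. *CG14207* and *Hsp67Bc*, the HSPB8-like members of the small heat shock genes, were at 1.31 and 1.02 on the same scale.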

How the data were processed

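Poly-A selected RNA of 1 *bs* KD and 1 control library was sequenced as single-end reads of 100 bp. Per the labels and the study's methods, the authors quantified it with Salmon on Galaxy against the transcripts of *D. melanogaster* release 6.21; for its version, nothing is given in the sources used here. The authors deposited, per gene, TPM (summing to 1000000 per library), estimated read counts and lengths. Their DESeq2 columns (base mean, log2 change, standard error, Wald statistic and p-values) were not used. No column of per-sample values was left out (0).

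The deposited estimated counts come in steps of 1.12 per read in both libraries (87.9% of genes with up to 500 reads in *bs* KD and 89.4% in the control within 0.02 of a whole step). Every member is at a whole number of steps. Intervals are exact binomial (Clopper-Pearson) from rounded estimated reads, so they are slightly too narrow; on whole steps *l(2)efl* has 139 reads in *bs* KD and 14 in the control, and its interval is 5.68 to 18.5. Implied transcript length is the effective length given by TPM and reads plus the bases Salmon trims; for several genes the deposited length is a part of it and was not used.

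Symbols came from a FlyBase gene name table (13842 genes) and positions from BDGP6.54, a later annotation of the authors' assembly. *unc-45* and *HSPBP1* were not matched, and *CG32041* and *Hsp67Bb* are older names within *Hsp22* and *CG4456*. Named were all members, the other family and cluster genes, *bs*, *Act88F*, *Hsf*, *stv*, and partner genes with at least 10 TPM in a library and 2-fold change; other partner genes were named after their values were seen. The members and lists were chosen with earlier results of these data known. Alternatives covered the value added, detection, scaling, unit and size of change. Steps were tested on simulated data. Tools were Python 3.11.15, pandas 2.3.3 and scipy 1.17.1.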

Additional observations from a re-analysis of the deposited data

How the results depend on the processing

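No member changed the sign of its log2 change under the 7 other pseudocounts, scalings and units tried. *Hsp22*, *CG14207* and *l(2)efl* stayed past 2-fold under each, at 1.28 to 1.52, 1.16 to 1.42 and 1.53 to 2.90. *Hsp67Bc* was below 2-fold with 5 TPM added (0.27), with median-ratio (0.96) or upper-quartile (0.95) scaling and in estimated reads per 1000000 (0.89), and *Hsp27* was past it with 0.5 TPM added (1.15). With 5 TPM added the median of the small heat shock genes was 0.32, and with a size of 3-fold 1 of them was higher by that size (*l(2)efl*). At 1.5-fold, 1 was lower (*Hsp23*). The log2 ratio of their summed TPM, 1.42, was 1.30 with median-ratio scaling, 1.28 with upper-quartile scaling, 1.38 without genes of the mitochondrial genome and 1.52 in estimated reads per 1000000. Among the other family and cluster genes, 0 were higher by the size asked for with 5 TPM added, in estimated reads per 1000000, with detection at 5 TPM and at 3-fold. At 3-fold, 5 of the partner genes were higher. The rule on the mean TPM and the sum without *Hsp22* were chosen after seeing the data. The cause of these differences was not tested, beyond the weight that a larger added value takes from genes near 1 TPM. Depth limits *Hsp23*, *Hsp26*, *Hsp27*, *Hsp67Bc* and *Hsp67Ba* in both libraries and *l(2)efl* in the control. No paired analysis was possible because each genotype has 1 library.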
